A study of Homo sapiens with 6 samples.

Results

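PEA15 encodes PEA-15, a small cytoplasmic protein built around a death effector domain. The genes described here are PEA15, the genes of 5 of its binding partners (MAPK3, RPS6KA1, RPS6KA3, FADD and PLD1) and the genes of 3 kinases that phosphorylate it (AKT1, PRKCA and CAMK2D). They were taken by symbol: every probe set annotated to exactly 1 gene, and that gene being one of these 9, was included. This gave 25 of the 54613 probe sets tested. PLD1 had 7 of them, PRKCA and CAMK2D 5 each, PEA15 and RPS6KA3 2 each, and MAPK3, RPS6KA1, FADD and AKT1 1 each.

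Both cell lines compared derive from SKOV3.ip1, a human ovarian cancer line, by stable transfection with a PEA-15 vector. The S116D line received phosphomimetic PEA-15, in which serine is replaced by aspartic acid, and the S116A line a form whose alanine in place of Ser116 cannot be phosphorylated. The S116D form is not described in one way: the titles name Ser116, the sample characteristics add Ser104, and the treatment text gives Ser16. Each line has 3 arrays, and nothing in the labels says whether those were separate cultures or separate clones, so p-values refer to the spread among arrays, possibly only a technical one. The promoter of the vector is not given in the sources used here. No array was of untransfected or empty-vector cells, and all differences are S116D minus S116A on the log2 scale.

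As background, PEA-15 has no catalytic activity and works by binding. When its C-terminal tail is unphosphorylated it binds the ERK kinases, keeps them out of the nucleus and brings them together with the RSK kinases. Phosphorylation by protein kinase C at Ser104 lowers ERK binding, and phosphorylation by AKT or CaMKII at Ser116 favours binding to FADD, the adaptor through which death receptors recruit caspase-8. These are protein events, whereas the arrays measured RNA.

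The arrays of each line resembled each other more (r from 0.9951 to 0.9979) than arrays of different lines did (0.9866 to 0.9902), and array medians lay between 7.86 and 7.89. The second principal component (20.3% of the variance) put S116D 1 with S116A 1 and 2, and S116D 2 and 3 with S116A 3; no label names these 2 sets, and differences within each set are given below where they bear on a result. On their brightest probe sets all 6 epithelial markers (ERBB2, EPCAM and the keratin genes KRT7, KRT8, KRT18 and KRT19) lay above the median signal of 7.89. All of them except ERBB2 were called lower in S116D; the mean log2 signal of the 6 was 12.20 to 12.62 in S116D arrays and 12.98 to 13.44 in S116A arrays. Also above the median signal were 3 of 6 leukocyte, 2 of 4 endothelial and 3 of 6 fibroblast markers. None of the 6 leukocyte or 6 fibroblast markers was called by limma, and at an unadjusted p under 0.05 the counts were 0 and 1, with LUM the 1. Of 4 endothelial markers KDR alone was called, lower, at 5.73 in S116D and 6.15 in S116A, both dim. The part of these marker differences in the results below was not tested.

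Of the 25 probe sets, 1 passed a limma adjusted p threshold of 0.05, the brightest of PRKCA, which was lower in S116D. None was called higher by limma. At an unadjusted p under 0.05, 3 probe sets were higher and 5 lower, together 32% of the 25, against 19.7% of all probe sets. Over all 54613 probe sets 8.55% were called, 4.36% higher and 4.19% lower, so the count for PEA15 and its partners lay near the background. Differences under 0.5 in size were found for 24 of the 25, and likewise for 51606 of all 54613 probe sets. The median difference was -0.09 against 0.0030 over all probe sets, and the median size regardless of sign 0.09 against 0.07. The direction was towards lower signal in S116D for 18 of 25, against 48.9% of all probe sets. Probe sets of 1 gene are not separate observations, and PLD1 alone gave 7 of the 18. On brightest probe sets 6 of the 9 genes were lower, against 47.7% of all genes, and above the median signal 10 of 17 probe sets were. The lines did not overlap for 9 of the 25 probe sets (3 higher and 6 lower), beside a background of 24.0%. The 95% intervals extended between 0.12 and 0.33 to each side of the estimates, but a call also had to pass the adjusted threshold. The difference of 0.44 for AKT1 (95% interval 0.11 to 0.77) was not called. With 3 arrays per line, changes of that size or smaller could therefore be missed. In RNA of whole cultures, fewer cells with a transcript and less of it per cell cannot be told apart.

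**Figure D1:**
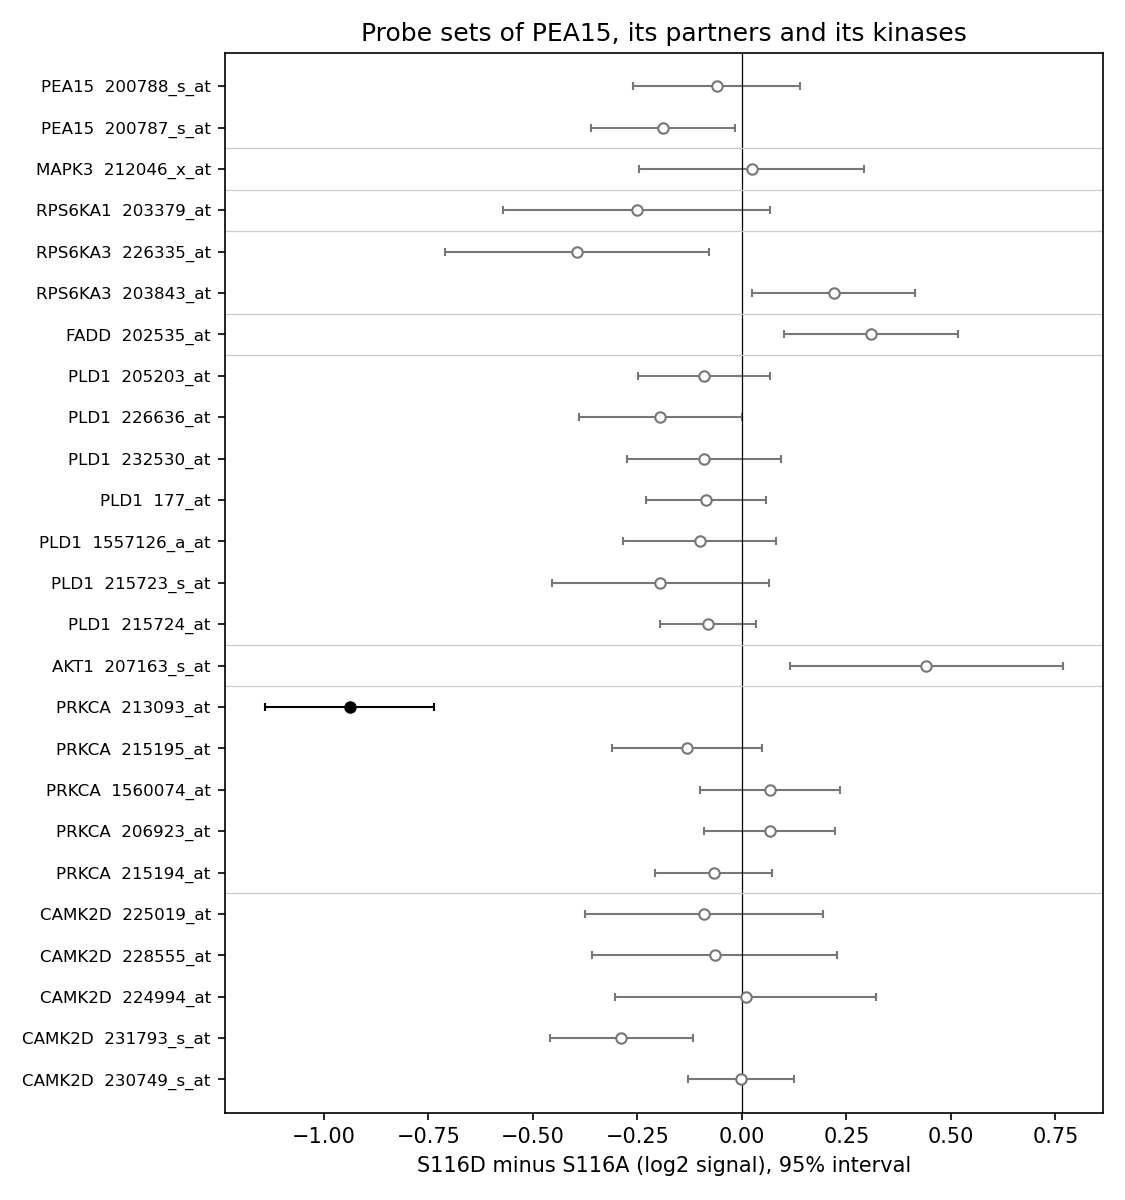
The x axis is the log2 signal of S116D minus that of S116A, with limma's 95% interval as bars, and each row is 1 of the 25 probe sets, ordered by gene and, within a gene, from the brightest down. The filled point is the called probe set, PRKCA 213093_at at -0.94; the 24 open points lie between -0.40 and 0.44.

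PEA15 itself came first because it is the transfected gene. Its brighter probe set, 200788_s_at, read 12.69, 12.48 and 12.47 in the S116D arrays and 12.70, 12.62 and 12.50 in the S116A arrays. The lines overlapped, and S116D 1 lay beside the highest S116A array. The difference was -0.06 with a 95% interval from -0.26 to 0.14 (limma adjusted p = 0.82), so a difference of more than about 1.2-fold in either direction fell outside the interval. Within the array sets the differences were 0.03 and -0.03.

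The other PEA15 probe set, 200787_s_at, read 10.87, 10.74 and 10.79 in S116D and 10.96, 11.03 and 10.97 in S116A. Here every S116D array was below every S116A array. The difference of -0.19 (95% interval -0.36 to -0.02) did not pass the threshold (limma adjusted p = 0.20) and had the same sign in both array sets, at -0.12 and -0.21. The shift was 0.13 smaller on the brighter probe set than on this one, a gap within the spread of the arrays (exact permutation p = 0.2, Benjamini-Hochberg adjusted 0.46 over 16 such pairs of probe sets). Where on the transcript the probes lie was not used here, so these values may or may not include RNA from the vector.

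Among the ERK pathway partners, MAPK3 encodes ERK1, one of the kinases that PEA-15 holds in the cytoplasm. Its single probe set, 212046_x_at, read 10.77, 10.48 and 10.61 in S116D and 10.68, 10.73 and 10.37 in S116A. The lines overlapped fully. The difference was 0.02 with a 95% interval from -0.25 to 0.29 (limma adjusted p = 0.96), and its sign turned, to -0.09 without S116A 3 and to -0.05 without S116D 1. A probe set of the x_at type can also read related transcripts.

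RPS6KA1 and RPS6KA3 encode RSK1 and RSK2, kinases that ERK activates; RSK2 is known to bind PEA-15. RPS6KA1 read 9.98, 9.71 and 9.57 in S116D and 10.22, 10.02 and 9.78 in S116A, with overlap, at a difference of -0.25 (95% interval -0.57 to 0.07, limma adjusted p = 0.40). Within the array sets it was -0.14 in each. In both lines the arrays of the first set read higher than those of the second.

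The probe sets of RPS6KA3 pointed in opposite directions. On the brighter, 226335_at, the signal was 10.76, 10.45 and 10.44 in S116D and 11.14, 11.02 and 10.68 in S116A. Only S116D 1 lay within the S116A range. The difference was -0.40 (95% interval -0.71 to -0.08, limma adjusted p = 0.14), and -0.32 and -0.23 within the array sets. It was called without S116A 3 (-0.53, limma adjusted p = 0.033), a setting that called 8.34% of all probe sets, and was not called without any other array (limma adjusted p up to 0.39). It was also called with the array sets as a block (-0.28, limma adjusted p = 0.019), a fit chosen after seeing the data that called 14.8% of all probe sets.

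The other RPS6KA3 probe set, 203843_at, read 10.52, 10.44 and 10.47 in S116D and 10.34, 10.13 and 10.30 in S116A. All 3 S116D arrays were higher here, by 0.22 on average (95% interval 0.03 to 0.41, limma adjusted p = 0.19). The shift between lines differed by -0.61 between the 2 probe sets, and the lines did not overlap in this contrast. The exact permutation p was 0.1, the smallest that 3 arrays against 3 can give (0.32 adjusted over the 16 pairs). No single direction can therefore be given for RPS6KA3.

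**Figure D2:**
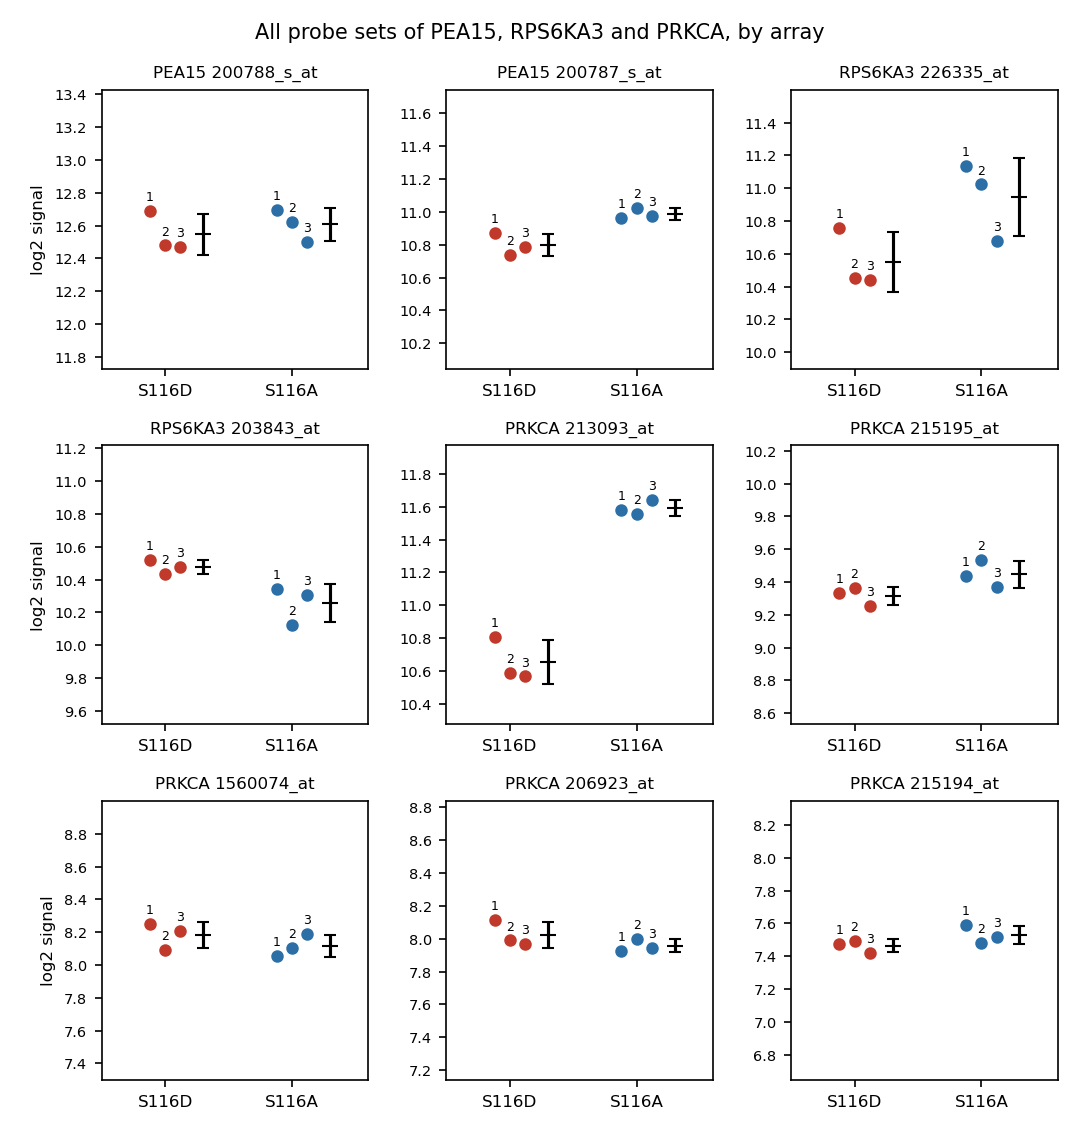
Each panel is 1 probe set of PEA15, RPS6KA3 or PRKCA; the y axis is log2 signal over an equal span in all panels, points are arrays numbered by replicate, and the bar beside them is the mean with its SD (n = 3). The RPS6KA3 panels move in opposite directions, and of the 5 PRKCA panels 213093_at alone shows widely separated lines.

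FADD is the death receptor adaptor that shares the death effector domain with PEA-15. It read 11.34, 11.21 and 11.33 in S116D and 10.94, 10.88 and 11.14 in S116A. Every S116D array was higher than every S116A array, with S116A 3 the nearest. The difference of 0.31 (95% interval 0.10 to 0.52), or 1.24-fold, did not pass the threshold (limma adjusted p = 0.080, unadjusted 0.0087). It was 0.43 in the first array set and 0.14 in the second. FADD was called without S116A 3 (0.39, limma adjusted p = 0.034) and was not called without any other array (limma adjusted p up to 0.24). It was also called with the array sets as a block (0.28, limma adjusted p = 0.042). That fit, chosen after seeing the data, called 14.8% of all probe sets.

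PLD1 encodes phospholipase D1, which makes phosphatidic acid from phosphatidylcholine and whose amount PEA-15 is known to raise. All 7 of its probe sets had lower means in S116D, by 0.08 to 0.20, and none was called (limma adjusted p from 0.25 to 0.66). The probe sets read the same 6 RNA samples, so their shared sign is a single observation rather than 7. The brightest, 205203_at, read 8.69, 8.78 and 8.75 in S116D and 8.80, 8.86 and 8.82 in S116A. These did not overlap, yet the gap of -0.09 (95% interval -0.25 to 0.07) was small. The next, 226636_at, read 8.37, 8.27 and 8.32 in S116D and 8.57, 8.62 and 8.36 in S116A, with S116A 3 inside the S116D range. Its difference was -0.20 (95% interval -0.39 to -0.00043, limma adjusted p = 0.25). The other 5 lay below the median signal, where a summary on the log2 scale can compress differences.

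AKT1 encodes a kinase that phosphorylates Ser116 of PEA-15, the residue that the titles of both lines name. Its probe set read 11.35, 10.97 and 10.94 in S116D and 10.83, 10.70 and 10.40 in S116A. The lines did not overlap, although each spanned about 0.4 and S116D 1 stood highest. The difference was 0.44 (95% interval 0.11 to 0.77), or 1.36-fold, and did not pass the threshold (limma adjusted p = 0.11). Within the array sets it was 0.58 and 0.55. With the sets as a block the difference was 0.57 and passed (limma adjusted p = 0.000315). Those sets were drawn from these same values, and that fit called 14.8% of all probe sets. Leaving out any array gave limma adjusted p from 0.12 to 0.23.

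PRKCA, the gene of protein kinase C alpha, held the one called difference. Its brightest probe set, 213093_at, read 10.81, 10.59 and 10.57 in S116D and 11.58, 11.55 and 11.64 in S116A. The S116D arrays lay together, well below the tightly grouped S116A arrays. Mean log2 signal was 10.65 ± 0.13 in S116D and 11.59 ± 0.05 in S116A (SD, n = 3 each), a difference of -0.94 ± 0.09 (SE) with a 95% interval from -1.14 to -0.74, so the signal in S116A was 1.92-fold that in S116D. The limma adjusted p was 5.2e-04. It was -0.76 and -1.07 within the array sets, and was called without any one of the arrays (-1.02 to -0.89, limma adjusted p up to 0.0049).

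The other 4 PRKCA probe sets were not called. On 215195_at the arrays read 9.33, 9.36 and 9.26 in S116D and 9.44, 9.54 and 9.37 in S116A, without overlap but only 0.13 apart (95% interval for the difference -0.31 to 0.05, limma adjusted p = 0.45). The differences of 1560074_at, 206923_at and 215194_at were 0.07, 0.07 and -0.07, with intervals within -0.21 and 0.24. The shift between lines on 213093_at minus that on each of these 4 was -1.01 to -0.81, with no overlap of the lines and an exact permutation p of 0.1 in each case, the smallest possible (0.32 adjusted over the 16 pairs). Of these 4, 215194_at lay below the median signal and 206923_at and 1560074_at only slightly above it. Which PRKCA transcripts or regions each probe set reads was not analysed here.

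**Figure D3:**
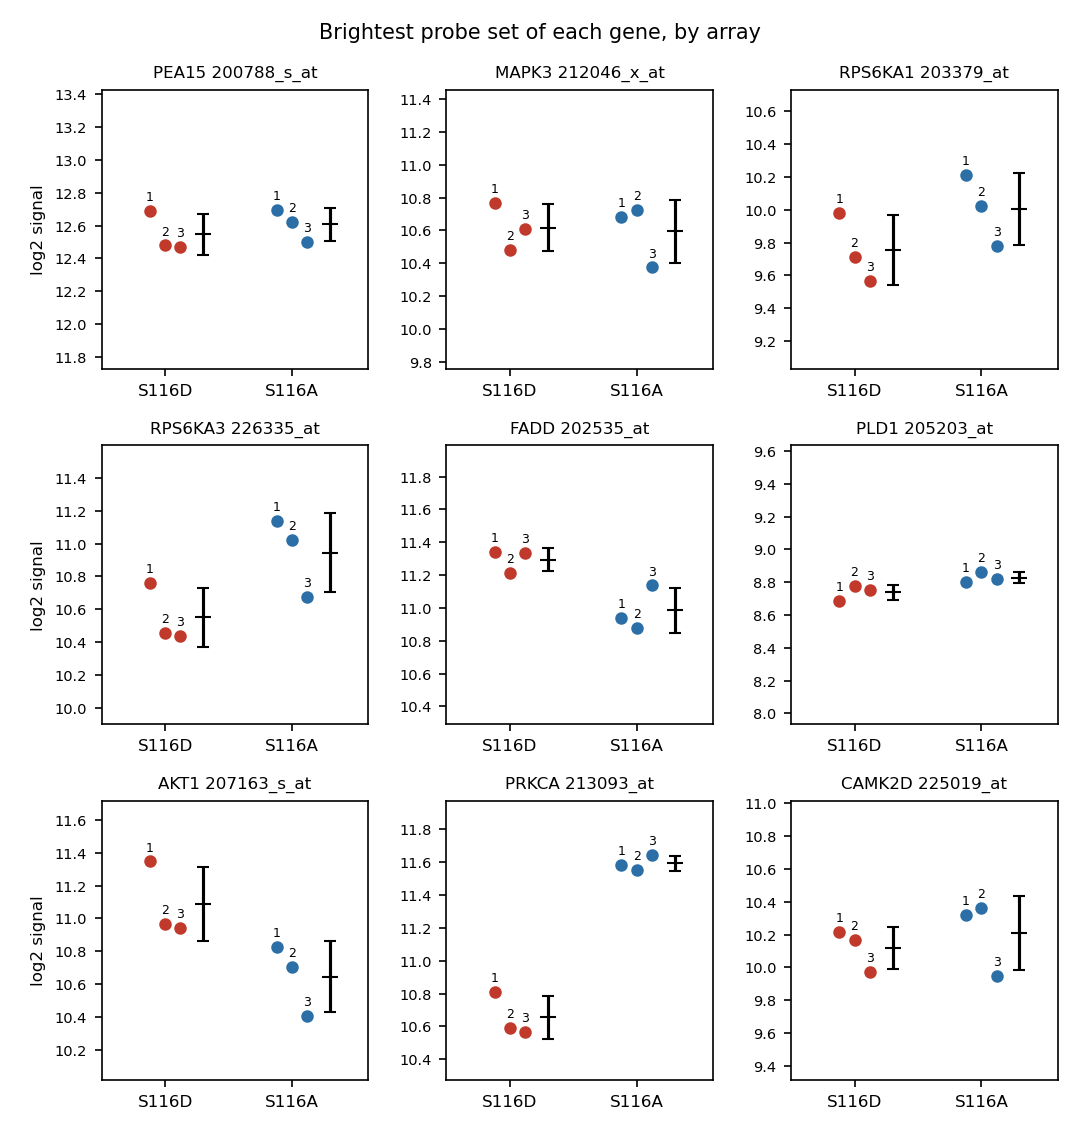
Each panel is the brightest probe set of 1 of the 9 genes; the y axis is log2 signal over an equal span, points are arrays numbered by replicate, and the bar beside them is the mean with its SD (n = 3). PRKCA shows the widest gap, FADD and AKT1 lie higher in S116D without overlap, and PEA15, MAPK3 and CAMK2D overlap.

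CAMK2D encodes the delta subunit of CaMKII, a calcium-activated kinase that also phosphorylates Ser116. Its brightest probe set, 225019_at, read 10.21, 10.17 and 9.97 in S116D and 10.32, 10.36 and 9.95 in S116A. The lines overlapped, and S116A 3 was the lowest of all 6 arrays. The difference was -0.09 (95% interval -0.38 to 0.19, limma adjusted p = 0.81). On 228555_at, 224994_at and 230749_s_at it was -0.06, 0.0092 and -0.0026, with limma adjusted p from 0.88 to 0.99. The sign of each of these 3 depended on which arrays were used.

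The remaining CAMK2D probe set, 231793_s_at, came nearest to the threshold of the 24 not called. It read 7.41, 7.45 and 7.47 in S116D and 7.64, 7.87 and 7.68 in S116A. Every S116D array was lower, by 0.29 on average (95% interval for the difference -0.46 to -0.12, limma adjusted p = 0.051). Its signal lay below the median of all probe sets. With quantile normalization, under which 8.82% of all probe sets were called, it passed (-0.30, limma adjusted p = 0.043). It also passed with median centring (limma adjusted p = 0.043), which called 8.43% of all, and with array weights (limma adjusted p = 0.036), which called 11.7%. The replicate block and the array sets as a block called it too, with 13.4% and 14.8% of all probe sets called. This probe set passed in none of the fits with 1 array left out (limma adjusted p from 0.067 to 0.14). The differences within array sets were -0.35 and -0.22.

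**Figure D4:**
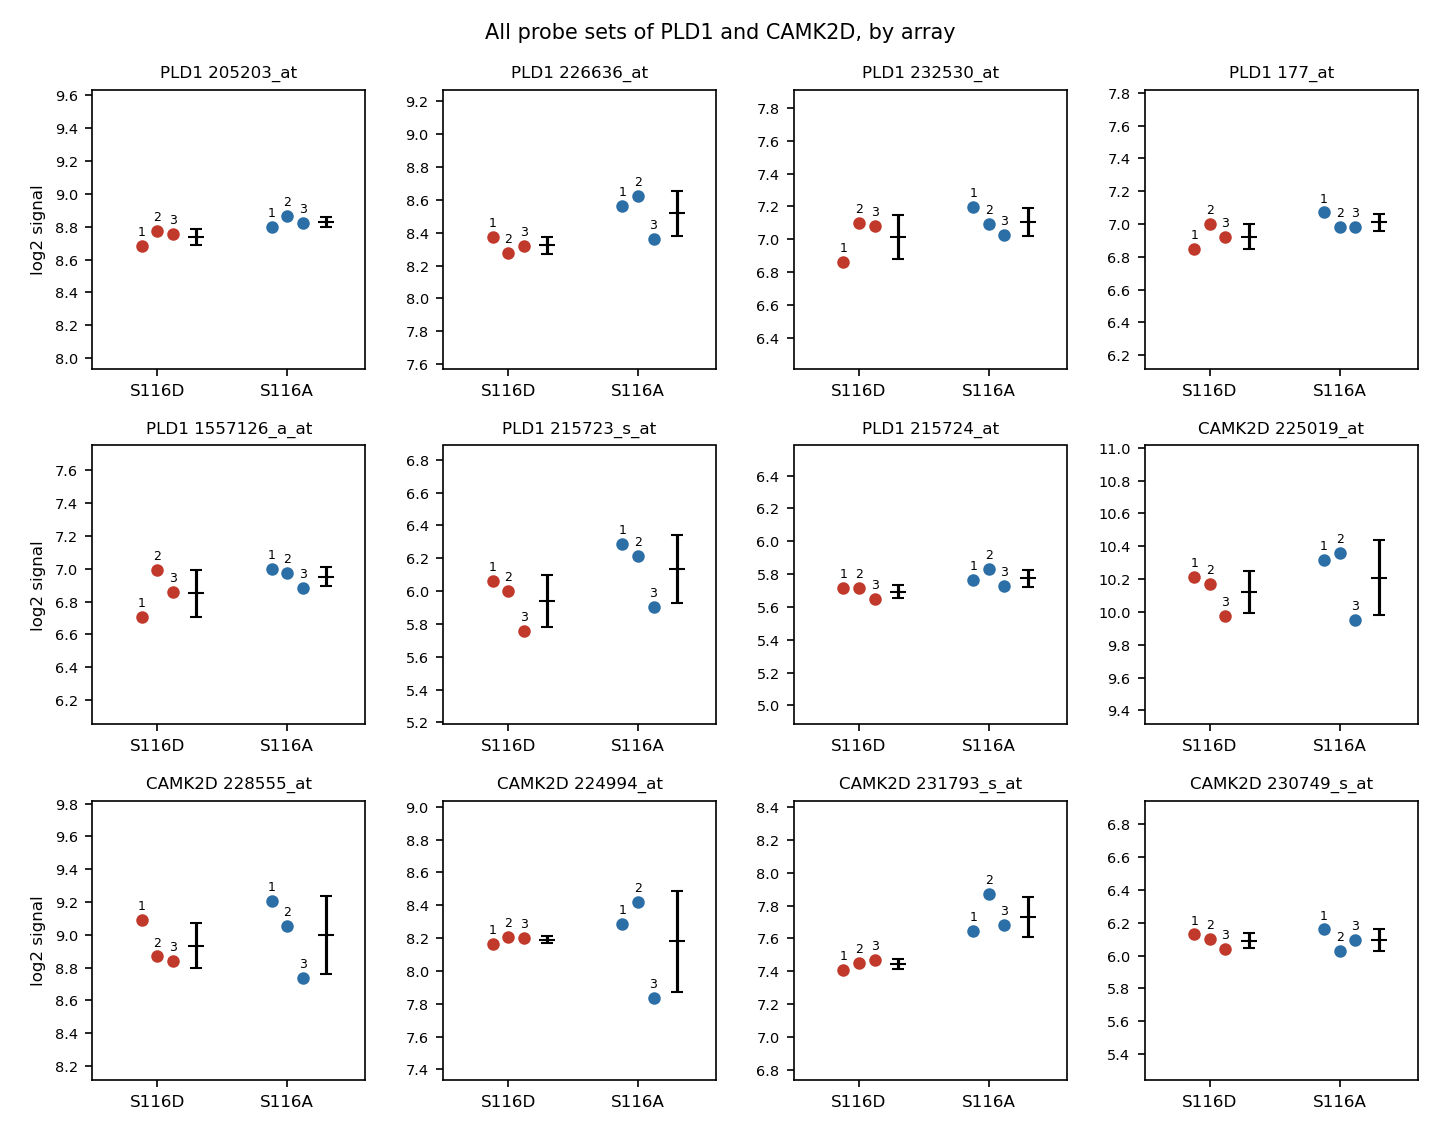
Each panel is 1 probe set of PLD1 (7 panels) or CAMK2D (5 panels); the y axis is log2 signal over an equal span, points are arrays numbered by replicate, and the bar beside them is the mean with its SD (n = 3). S116D means lie slightly lower in every PLD1 panel, by 0.20 at most, and of the CAMK2D panels only 231793_s_at has lines that do not overlap.

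Genes that act beside these proteins were read on their brightest probe sets, from 7 lists that share no gene. The lists were chosen with earlier results of these data known, so counts from them are not independent of the values. Of 84 listed genes 69 were analysed here, PEA15 and the 8 other genes included; 3 were called higher and 10 lower in S116D, PRKCA among the lower. Over all 19775 genes 11.0% were called on their brightest probe set, 6.13% higher and 4.82% lower. That background is dimmer: 66 of the 69 lay above the median signal, against 13419 of all genes. In a fit of only the probe sets above the median signal, 16.2% of all were called. There 3 of the 66 list genes were called higher and 10 lower. The median difference was -0.09 over the 69 and 0.0064 over all genes. Leaving out S116D 2, S116D 3 or S116A 1 gave 1, 4 or 3 falls, in settings where calls over all probe sets also dropped, to 4.78%, 5.08% and 5.08%.

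In the ERK cascade, 3 of 16 genes were called, all lower. HRAS, a RAS GTPase upstream of ERK, read 10.95, 10.76 and 10.80 in S116D and 11.32, 11.31 and 11.24 in S116A, a fall by 0.45 (limma adjusted p = 0.011). PTPN11, whose phosphatase SHP2 promotes RAS activation, fell by 0.34 and was called on 4 of its 6 probe sets. KSR2, a scaffold of the cascade, fell by 0.41 at a signal below the median and was called on 1 of 2. Of 11 ERK-activated kinases and ELK transcription factors, RPS6KA5 was called: it encodes MSK1, a nuclear kinase related to the RSKs, and rose by 0.47 (limma adjusted p = 0.020) on 1 of its 3 probe sets.

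Of the 7 genes with a death effector domain, DEDD2 alone was called, lower by 0.40 (limma adjusted p = 0.033). CASP8, the caspase that FADD recruits, differed by 0.31 and CFLAR, its inhibitor c-FLIP, by 0.29, at limma adjusted p of 0.11 and 0.19. FADD differed by 0.31. The lines overlapped for CFLAR and not for CASP8. Of the rest of the list, CASP10 differed by 0.14, DEDD by -0.08 and PEA15 by -0.06, without a call. CASP8 and CFLAR were named after their values were seen.

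Of 15 genes of the PI3K and AKT pathway 1 was higher and 2 lower. PIK3R1, the p85 alpha regulatory subunit of PI3K, read 10.93, 10.77 and 10.64 in S116D and 10.01, 10.04 and 9.68 in S116A. The lines stood well apart, by 0.87 ± 0.12 (SE), or 1.82-fold (limma adjusted p = 0.0034), and all 3 of its probe sets were called higher. PHLPP1, a phosphatase that removes phosphate from AKT, read 7.83, 7.54 and 7.69 in S116D and 8.81, 8.91 and 8.20 in S116A, a fall by 0.95 ± 0.18 (SE; limma adjusted p = 0.012), called on 1 of 2 probe sets. INPP4B, a lipid phosphatase that acts on a PI3K product, was called on 2 of its 4 probe sets, all below the median signal: it fell by 0.31 on the brightest and by 1.17 on another. The other two were not called, at -0.22 and, in the opposite direction, 0.12.

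The protein kinase C family had calls in both directions, 1 higher and 2 lower of 8 genes. PRKCH, protein kinase C eta, read 10.06, 9.55 and 9.69 in S116D and 8.73, 8.66 and 8.26 in S116A. This rise by 1.21 ± 0.16 (SE), or 2.32-fold (limma adjusted p = 0.0027), was seen on the brightest of 3 probe sets, while the other two gave 0.32 and 0.02 without a call. PRKCI, the atypical isoform iota, fell by 0.36 (limma adjusted p = 0.016) on its brightest probe set and by 0.47 on another. The third differed by 0.17 in the opposite direction without a call (95% interval -0.02 to 0.36), so its probe sets do not share a direction. PRKCA was the other fall.

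The CaMKII and calmodulin list was read for 3 CaMKII subunit genes and 2 genes of CaMKII inhibitors, and no calmodulin gene was analysed here. No gene was called by limma among these 5, and none had an unadjusted p under 0.05 (0 of 5). Of the 7 genes of phospholipase D and its activators 2 were lower: ARF6, a small GTPase at the plasma membrane, by 0.36 (limma adjusted p = 0.020, called on 1 of 4 probe sets), and RALB, a RAS-related GTPase, by 0.31 (limma adjusted p = 0.020, on 1 of 2). PLD2 differed by -0.02 and was named after its value was seen. Of the 12 called genes in these lists beyond PRKCA, PIK3R1 and PRKCH were called without any one of the arrays, and PTPN11 was lost only without S116D 2 (limma adjusted p = 0.057). The other 9 lost their call without 2 or more of the arrays, each left out singly, at limma adjusted p up to 0.16. Their differences kept their sign and most of their size, for example -0.51 to -0.41 for HRAS, -0.40 to -0.30 for ARF6 and -1.17 to -0.82 for PHLPP1, and with 1 array left out 4.78% to 8.56% of all probe sets were called.

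**Figure D5:**
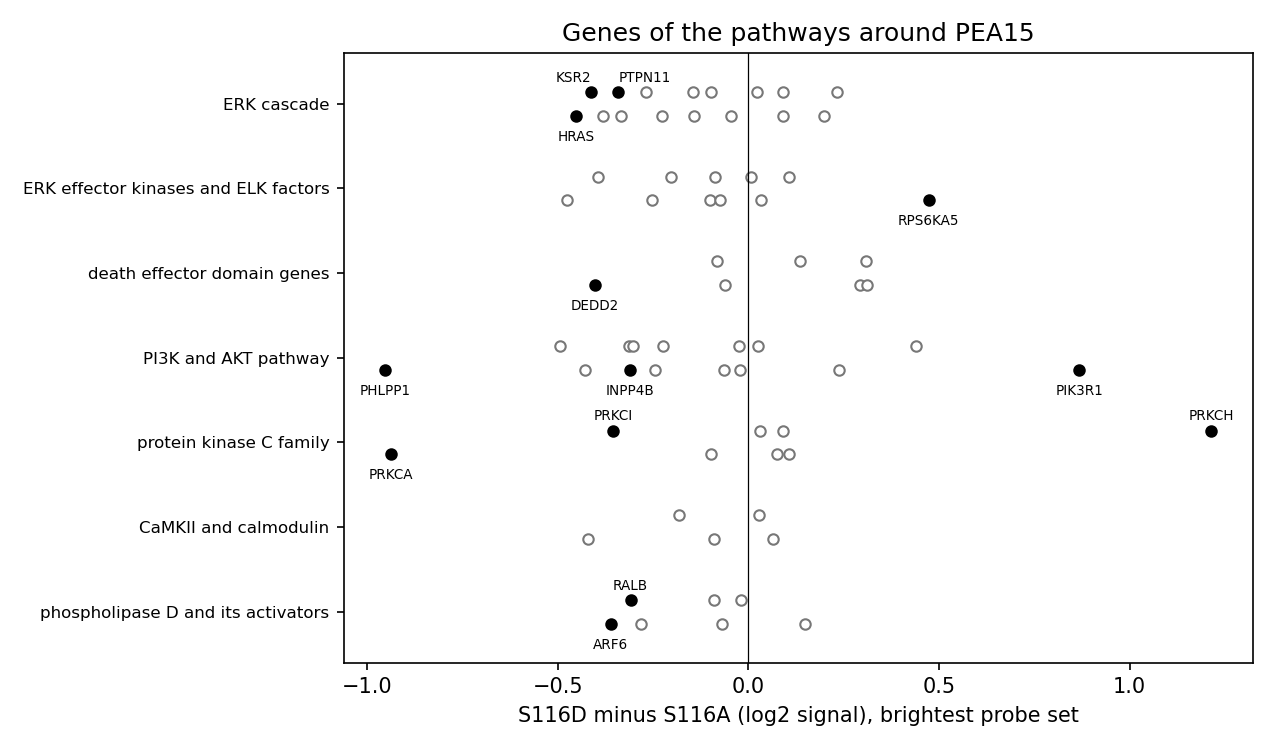
The x axis is the log2 signal of S116D minus S116A on the brightest probe set, each point is a gene, and rows are the 7 lists; filled points with names are called. PRKCH (1.21) and PIK3R1 (0.87) stand at the high end, PHLPP1 (-0.95) and PRKCA (-0.94) at the low end.

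Signals most like that of PEA15 were looked for among 13418 other genes with brightest probe sets above the median signal. The highest Pearson correlations with 200788_s_at over the 6 arrays were those of CEP131, FOXK2, ARF3, TRAK1 and NUP188, at 0.996 to 0.995. All 5 differed between the lines by -0.21 to -0.15 without a call (limma adjusted p from 0.66 to 0.80). On that PEA15 probe set the arrays of the first set read 12.62 to 12.70 and those of the second 12.47 to 12.50, whichever the line. Of the partners and kinases, RPS6KA1 followed PEA15 most closely (0.93), then RPS6KA3 (0.84), MAPK3 (0.78) and CAMK2D (0.77). PRKCA (0.40), AKT1 (0.36), PLD1 (-0.14) and FADD (-0.40) followed it less. The 2 PEA15 probe sets correlated at 0.54 with each other. All of these values share the same 6 arrays, and RPS6KA1 likewise read higher in the first array set in both lines. How often other genes reach such correlations was not counted here, so these correlations are a description only.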

How the data were processed

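Per the labels' protocols, biotin-labelled RNA was read on Affymetrix HG-U133 Plus arrays. The deposited values, 1 per probe set and array, were taken as log2 signals, since all lay between 4.34 and 15.33 with nearly equal quartiles. Per the submitters' processing notes MAS5 and RMA were used, with no role given; any other step is not given in the sources used here. No detection calls were used.

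After removal of 62 control probe sets, 54613 were fitted in limma 3.58.1 under R 4.3.3, using lmFit and a trended eBayes, with the line as the only term, Benjamini-Hochberg adjustment over all of them and a threshold of 0.05. SEs and intervals are limma's. The fit was tested on simulated data. GEO's platform annotation gave 1 gene for 41091 probe sets; symbols were updated by gene identifier from RefSeq (GRCh38.p14) for 41037. A gene's brightest probe set is that with the highest mean over the 6 arrays.

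Groups came from sample titles. Replicate numbers were not taken as pairs. Shifts on different probe sets of a gene were compared by two-sided exact permutation over arrays, where 0.1 is the smallest p. The genes, lists, markers and alternatives were chosen with earlier results of these data known. Named were all probe sets of the 9 genes, up to 4 called genes per list with the smallest adjusted p, and the 5 genes most like PEA15. Pseudocounts planned for linear values were not needed. The number of arrays limits precision.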

Additional observations from a re-analysis of the deposited data

How the results depend on the processing

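PRKCA 213093_at was called lower in all 14 alternatives (-1.02 to -0.89, limma adjusted p up to 0.0049). The number of probe sets called higher among the 25 was 0, and it was 1 with array weights, 2 with the replicate number as a block and 2 with the array sets as a block. The number called lower was 1, and it was 2 with quantile normalization, 2 with median centring, and 3 each with array weights, the replicate block and the array sets as a block. Leaving out 1 array gave 0 to 1 higher and 1 to 2 lower. List genes called higher numbered 3, against 5 with array weights, 6 with the replicate block, 8 with the array sets and 2 to 4 with 1 array left out. Those called lower numbered 10, against 13 with array weights, 14 with the replicate block and 13 with the array sets. They numbered 12 with 1 probe set per gene, 11 with quantile normalization and 1 to 13 with 1 array left out. Among the 25, the counts were the same when dim probe sets were filtered, the trend was dropped or 1 probe set per gene was kept. Of the 25 probe sets 17 lay above the median signal; signal over background could not be judged.

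Same-numbered arrays correlated in their deviations from the line means at 0.45, -0.04 and 0.44. These values do not settle whether such arrays were paired. No label calls them pairs, and the main fit did not take them as pairs. With the replicate block 13.4% of all probe sets were called, against 8.55% without it, 11.7% with array weights, 8.43% with median centring and 14.8% with the array sets as a block. RPS6KA3 226335_at, FADD, AKT1 and CAMK2D 231793_s_at were called with either block (limma adjusted p 0.0093 to 0.035 with the replicate block).

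The sign turned for uncalled differences near 0. PEA15 200788_s_at was 0.0014 with the array sets as a block, and -0.13 to -0.02 with 1 array left out. MAPK3 was -0.051 with array weights and -0.087 to 0.093 with 1 array left out. CAMK2D 224994_at was -0.0032 with median centring, -0.038 with array weights and -0.16 to 0.13 with 1 array left out. CAMK2D 228555_at and 230749_s_at were 0.040 and 0.0063 with the array sets as a block, and -0.20 to 0.039 and -0.037 to 0.030 with 1 array left out. The cause was not tested.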
